A study of Mus musculus with 6 samples.

Results

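The set called interferon-induced antiviral effector genes holds 41 mouse genes. Many of their products act against viruses once a cell has received an interferon signal, and some, such as Usp18, restrain that signal. The genes were chosen by current or former gene symbol, and each of the 41 matched a row under its current symbol among the 24061 gene IDs of the count table. Of these, 40 had enough reads for the test. After an siRNA against Wt1, 22 of the 40 were lower than after a control siRNA and 0 were higher. Among all genes tested, 10.3% were lower and 9.05% higher at the same threshold. The falls of the members were uneven. Mx1, Cmpk2, Rsad2, Ifit1 and Mx2 fell at least 4.69-fold. Xaf1, Ifi35, Dtx3l, Ifi47 and Lgals9 had log2 fold changes between -0.06 and 0.04 and did not pass.

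The RNA came from cultured resident fibroblasts of fibrotic lungs. The mice carried a TGF-alpha transgene (TGF-alpha is a growth factor that activates Egfr). In 3 libraries (numbered 4 to 6) the cells had received a stealth siRNA against Wt1, the Wilms tumor zinc finger transcription factor, and in 3 libraries (numbered 1 to 3) a stealth control siRNA. Every library therefore comes from transgenic cells that had received an RNA duplex, and no cells without a duplex are among the samples. The groups differ in the duplex as well as in Wt1. A response to either duplex and an effect of Wt1 loss thus cannot be told apart in any difference given here. The sources used here do not give the promoter that drives the transgene, the strain, the duplex sequences or the time between transfection and harvest. Depth, in units of 1e6 counts, was 27.5, 29.4 and 32.1 in Wt1 siRNA libraries 4 to 6 and 30.4, 28.2 and 26.1 in control libraries 1 to 3, and 3 counts in a library were worth 0.0926 to 0.113 counts per 1e6 counts (CPM). Whether libraries of 1 group stem from different mice or dishes is not labelled; p-values here thus reflect only variation among these samples, and that may be technical.

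Type I interferons bind the receptor of Ifnar1 and Ifnar2, the kinases Jak1 and Tyk2 then phosphorylate STAT proteins, and these join Irf9 to form the factor ISGF3. ISGF3 binds the interferon-stimulated response element in promoters and turns on the antiviral genes. Their products bind or cut viral RNA, block entry and release of particles, starve replication of nucleotides, or mark proteins with the ubiquitin-like Isg15. Fibroblasts make these proteins after virus infection or when nucleic acid sensors are triggered, and many cells keep a low level of them without infection.

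The promoters of 8 members were picked to show different arrangements of the response element, or none, in genes that differ in how far they fell. They are examples and do not stand for all members. The letters searched were GAAA, any 2 bases and GAAA again, on both strands, in windows of 250 bases before to 50 after each RefSeq start (GRCm38.p6); each line gives the 190 bases before the start, 5′ to 3′ on the strand of the gene, with matches in capitals. Ifit1, Ifit3, Ifit3b, Isg15 and Rsad2 hold matches and fell, Cmpk2 holds none here and fell, and Oas1a and Lgals9 hold matches and did not pass.
Ifit1 (chr19:34640699-34640888, plus strand): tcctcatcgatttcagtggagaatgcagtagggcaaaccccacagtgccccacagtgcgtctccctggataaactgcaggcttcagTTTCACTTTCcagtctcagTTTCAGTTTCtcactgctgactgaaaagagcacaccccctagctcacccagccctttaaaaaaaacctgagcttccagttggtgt
Ifit3 (chr19:34583339-34583528, plus strand): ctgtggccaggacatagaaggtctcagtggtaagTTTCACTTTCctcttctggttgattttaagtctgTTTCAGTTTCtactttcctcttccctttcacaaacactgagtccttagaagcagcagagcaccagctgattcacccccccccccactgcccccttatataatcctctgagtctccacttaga
Ifit3b (chr19:34607767-34607956, plus strand): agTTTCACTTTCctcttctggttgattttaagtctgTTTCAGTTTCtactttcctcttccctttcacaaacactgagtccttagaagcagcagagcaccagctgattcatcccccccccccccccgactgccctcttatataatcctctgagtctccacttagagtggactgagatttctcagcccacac
Isg15 (chr4:156200819-156201008, minus strand): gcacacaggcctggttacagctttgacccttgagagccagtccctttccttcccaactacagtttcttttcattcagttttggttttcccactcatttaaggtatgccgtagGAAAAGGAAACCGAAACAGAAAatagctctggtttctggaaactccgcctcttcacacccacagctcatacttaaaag
Rsad2 (chr12:26456453-26456642, minus strand): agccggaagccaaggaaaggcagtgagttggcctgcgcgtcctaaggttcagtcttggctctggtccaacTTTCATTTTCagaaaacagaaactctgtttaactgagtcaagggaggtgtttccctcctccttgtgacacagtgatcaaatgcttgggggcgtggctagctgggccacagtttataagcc
Cmpk2 (chr12:26469025-26469214, plus strand): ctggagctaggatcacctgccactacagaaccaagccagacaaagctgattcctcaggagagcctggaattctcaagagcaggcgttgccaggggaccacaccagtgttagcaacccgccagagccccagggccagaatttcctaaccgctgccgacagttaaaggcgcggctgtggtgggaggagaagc
Oas1a (chr5:120907526-120907715, minus strand): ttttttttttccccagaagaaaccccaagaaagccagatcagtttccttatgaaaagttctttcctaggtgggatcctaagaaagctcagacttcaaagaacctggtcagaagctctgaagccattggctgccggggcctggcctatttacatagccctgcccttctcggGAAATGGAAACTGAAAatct
Lgals9 (chr11:78984925-78985114, minus strand): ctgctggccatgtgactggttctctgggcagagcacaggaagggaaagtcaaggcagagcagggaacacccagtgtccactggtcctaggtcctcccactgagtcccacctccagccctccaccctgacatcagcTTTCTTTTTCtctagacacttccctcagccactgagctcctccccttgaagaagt

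The matches of Ifit1 begin at -104 and -85 from the start. In Ifit3 they begin at -156 and -122, and in the neighbouring copy Ifit3b at -188 and -154. Isg15 has 3 matches that run into one another, beginning at -78, -72 and -66, and Oas1a has 2 that overlap, at -20 and -14. Rsad2 has a single match at -120. The match of Lgals9 at -55 is a run of T and C, and a second one lies 16 bases after the start, outside the printed stretch.

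The targeted gene was checked before the others. Wt1 (gene ID 22431) stood at 11.4, 8.62 and 7.91 CPM in Wt1 siRNA libraries 4 to 6 and at 48.8, 55.7 and 51.4 CPM in control libraries 1 to 3. The groups were well separated, with a log2 fold change of -2.48 ± 0.16 (SE; quasi-likelihood test of edgeR with Benjamini-Hochberg adjustment, adjusted p = 5.98e-06). Over all 14190 genes tested, 1459 were lower and 1284 higher at an adjusted p below 0.05; 46.8% of the called genes were higher, and 31.9% with scaling by library size alone. Leaving out Wt1 siRNA library 4 gave 785 lower and 578 higher genes, and leaving out library 5 of that group gave 836 higher. Fibroblast markers were abundant, at a summed 27599 to 34824 CPM in Wt1 siRNA libraries and 14934 to 21938 CPM in controls, mostly from Col1a1 and Col1a2. Of the 8, 5 were higher, Pdgfrb and Thy1 did not pass, and Pdgfra was lower, at 523 ± 96.4 CPM after Wt1 siRNA and 1180 ± 70.9 CPM in controls (SD, n = 3; edgeR adjusted p = 1.48e-04). These are counts of bulk RNA, in which fewer cells of a type and less RNA per cell cannot be told apart.

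Of the 40 members tested, 55.0% were lower, where 10.3% of all genes tested were lower and 9.05% higher. None of the members was higher at an adjusted p below 0.05 in edgeR, DESeq2 or limma-voom (0 in each), and 0 were higher at an unadjusted p below 0.05 in edgeR, where 26 were below that value, as were 32.1% of all genes tested. A fall of at least 2-fold was called for 13 members, and 3.20% of all genes tested had one. The log2 fold changes of 37 members were negative, as were 49.6% of those of all genes tested, and 3 were positive, of which Ifi47 and Lgals9 were negative with library size scaling. Their median was -0.72, beside 0.003 for all genes tested. Without control library 2 the median was -0.52. In 26 members all Wt1 siRNA libraries lay below all controls, an arrangement found in 18.3% of all genes tested. The list was chosen with earlier results of these data known, so these shares describe it and do not test it.

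**Figure D1:**
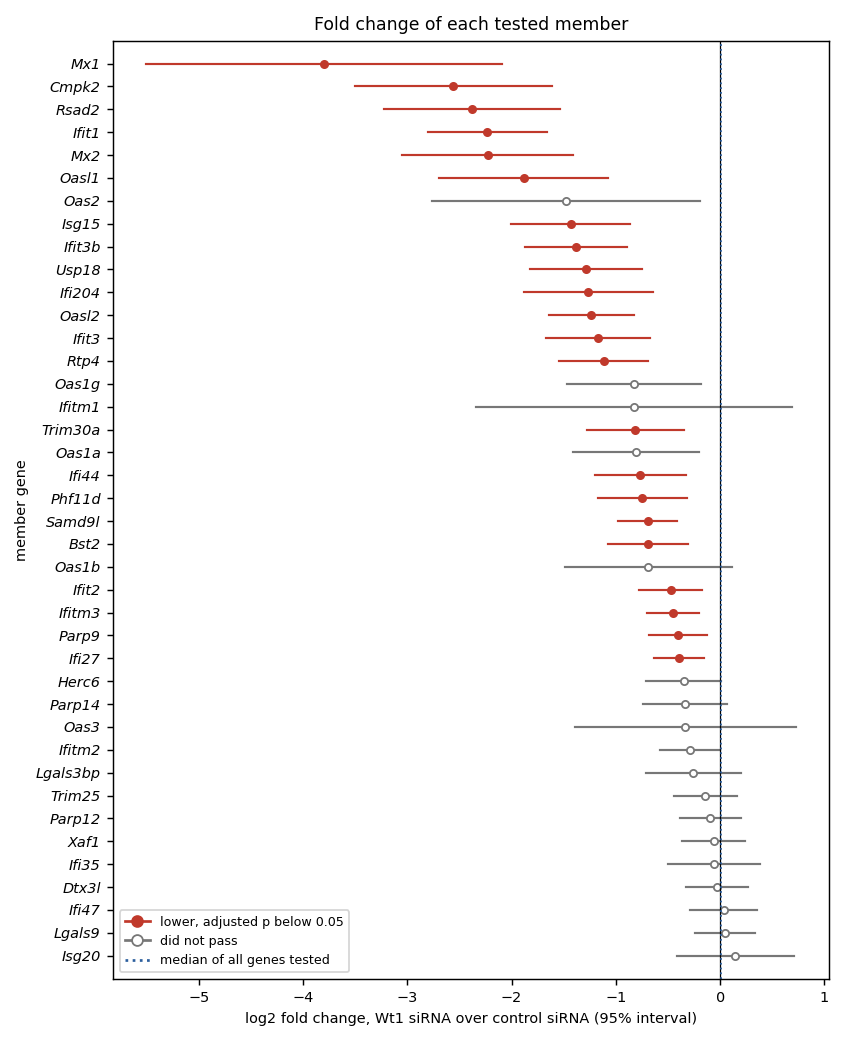
Log2 fold change of each of the 40 tested members, Wt1 siRNA over control siRNA, with its 95% interval from the edgeR fit (filled red: lower at an adjusted p below 0.05; open grey: did not pass; dotted line: median of all genes tested). The 22 called members lie between -3.80 and -0.39, and the values nearest 0 belong to members that did not pass.

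The RNA-binding IFIT proteins, whose genes lie side by side on chromosome 19, were all lower. Ifit1, which binds viral RNA caps that lack ribose methylation, had 16.4, 23.3 and 12.8 CPM in Wt1 siRNA libraries 4 to 6, against 50.5, 96.9 and 99.0 CPM in control libraries 1 to 3. The groups were far apart, and control library 1 was the lowest control; the fall was 4.70-fold (log2 fold change -2.23 ± 0.26, edgeR adjusted p = 2.00e-04). Ifit3, which binds and stabilises Ifit1 in human cells, had 16.5, 15.1 and 12.9 CPM after Wt1 siRNA, against 21.1, 44.3 and 34.8 CPM in controls (-1.17 ± 0.23, adjusted p = 0.00399). Its copy Ifit3b had 10.1, 9.78 and 8.16 CPM after Wt1 siRNA, against 16.7, 32.7 and 23.6 CPM in controls (-1.38 ± 0.23, adjusted p = 0.00143). The 2 copies share much sequence: 51.2% of the windows of 50 bases in Ifit3 transcripts also occur in Ifit3b, so their reads could have been split either way and each value is uncertain.

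Ifit2, another RNA-binding member of the family, changed least. It had 30.2, 26.1 and 27.2 CPM after Wt1 siRNA, against 32.7, 40.5 and 42.9 CPM in controls (-0.48 ± 0.14, edgeR adjusted p = 0.0307). Its groups did not overlap, but the adjusted p was 0.0715, 0.104 and 0.0787 without Wt1 siRNA library 4, 5 or 6, and 0.063 and 0.118 without control library 2 or 3.

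**Figure D2:**
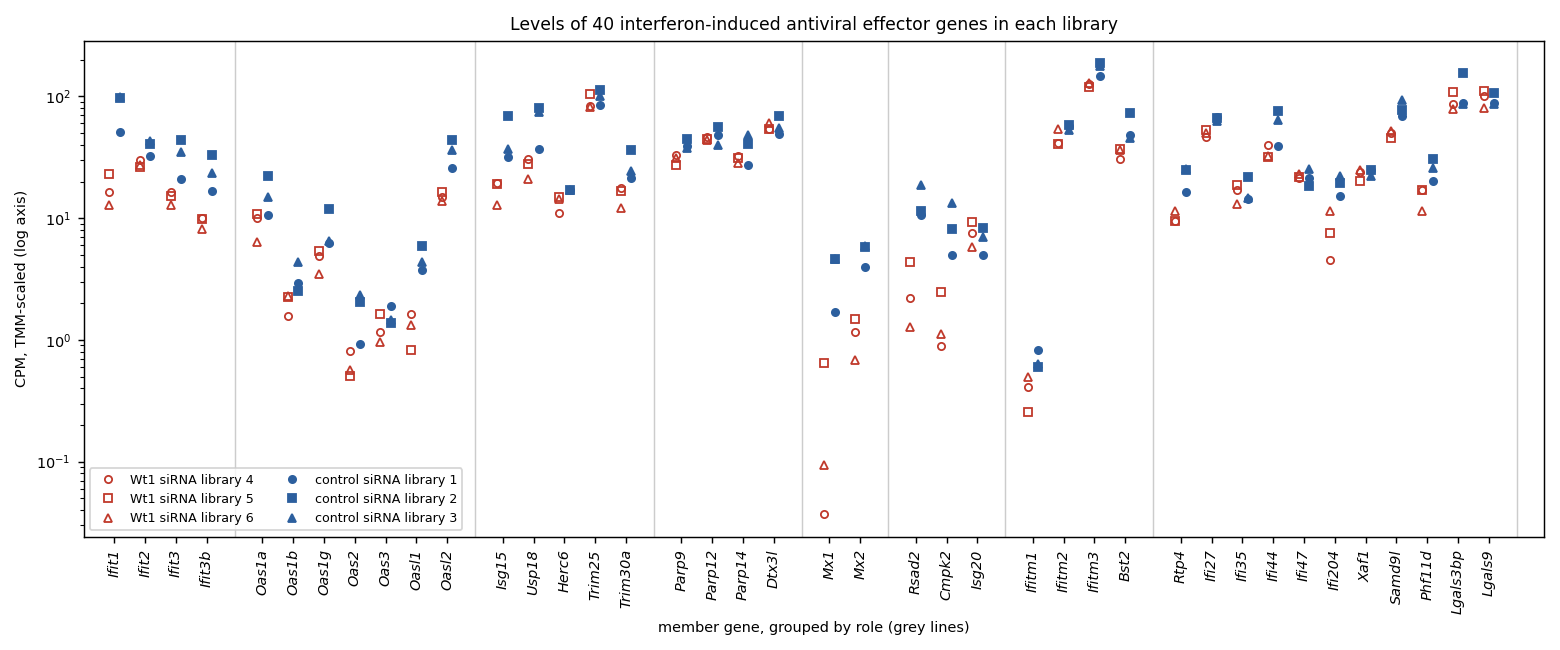
Level of the 40 tested members in each library, in CPM on a log axis, grouped by role (open red: Wt1 siRNA libraries 4 to 6; filled blue: control siRNA libraries 1 to 3). Ifit1, Mx1, Mx2, Rsad2 and Cmpk2 show wide gaps between the groups, while the points of Parp12, Dtx3l, Xaf1 and Lgals9 overlap.

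Active enzymes of the OAS family, on binding double-stranded RNA, make oligoadenylates that activate the ribonuclease RNase L. Whether each listed gene encodes an active enzyme was not examined. Of the 7 listed genes of the family 2 were lower, both of the OAS-like branch. Oasl2 had 14.8, 16.3 and 13.9 CPM after Wt1 siRNA, against 25.6, 44.0 and 36.5 CPM in controls (-1.24 ± 0.19, edgeR adjusted p = 8.97e-04). Oasl1, reported in mice to restrain production of Irf7, was scarcer, at 1.64, 0.833 and 1.31 CPM after Wt1 siRNA and 3.76, 5.87 and 4.36 CPM in controls (-1.88 ± 0.37, adjusted p = 0.00431). For both genes every Wt1 siRNA library lay below every control.

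The other 5 OAS genes had negative log2 fold changes that did not pass. Oas1a had 10.1, 10.8 and 6.35 CPM after Wt1 siRNA, against 10.5, 22.2 and 14.8 CPM in controls (-0.81 ± 0.28, 95% interval -1.41 to -0.21, edgeR adjusted p = 0.0597). Control library 1 lay among the Wt1 siRNA values; without it the adjusted p was 0.027, and it was 0.0353 with library size scaling, 0.0229 without a low-count filter and 0.0258 with DESeq2. Without control library 2 the log2 fold change of Oas1a was -0.48 (adjusted p = 0.222, the highest of its alternatives). Oas1g, a close copy, had 4.91, 5.40 and 3.50 CPM after Wt1 siRNA, against 6.20, 11.8 and 6.46 CPM in controls (-0.83 ± 0.29, adjusted p = 0.0695; 0.0446 with library size scaling, 0.0422 without a low-count filter and 0.0436 with DESeq2). Without control library 2 it was -0.46 (adjusted p = 0.272, the highest of its alternatives). Oas1a and Oas1g can exchange reads, since 57.6% of the windows of Oas1a occur in Oas1g.

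Oas1b, known in mice for resistance to flaviviruses, had 1.56, 2.25 and 2.28 CPM after Wt1 siRNA and 2.93, 2.53 and 4.396 CPM in controls, an adjusted p of 0.225 (edgeR; log2 fold change -0.69 ± 0.37). Oas2, a larger synthetase, had only 22, 14 and 18 counts after Wt1 siRNA and 30, 58 and 62 counts in controls, and its groups did not overlap (-1.48 ± 0.59, adjusted p = 0.102, and 0.0479 with DESeq2 to 0.304 without control library 3). Oas3, the largest synthetase, had 31, 45 and 31 counts after Wt1 siRNA and 61, 39 and 39 counts in controls (-0.33 ± 0.49, interval -1.40 to 0.73, adjusted p = 0.696). The intervals of these scarce genes are wide, and that of Oas3 does not exclude a 2-fold fall.

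Isg15 is a small ubiquitin-like protein that is attached to other proteins, and Usp18 removes it and also restrains signalling at the receptor subunit Ifnar2. Isg15 had 19.4, 18.9 and 12.7 CPM after Wt1 siRNA, against 32.0, 69.0 and 36.9 CPM in controls. Control library 2 stood well above the other controls; the fall was 2.70-fold (log2 fold change -1.43 ± 0.26, edgeR adjusted p = 0.00288) and -1.02 without that library. Usp18 had 30.4, 27.6 and 20.8 CPM after Wt1 siRNA, against 37.0, 80.1 and 74.9 CPM in controls (-1.28 ± 0.25, adjusted p = 0.00373). Herc6, the main ligase for Isg15 in mice, had 10.97, 14.9 and 14.4 CPM after Wt1 siRNA, against 17.1, 17.2 and 16.95 CPM in controls, and did not pass although the groups did not overlap (-0.35 ± 0.17, adjusted p = 0.169). Reads of Herc6 may be shared with the predicted gene Gm45193, which covers 26.6% of its exon bases on the same strand.

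Among the TRIM ubiquitin ligases, Trim30a was lower and Trim25 was not. Trim30a had 17.7, 16.8 and 12.2 CPM after Wt1 siRNA, against 21.3, 36.5 and 24.3 CPM in controls (-0.81 ± 0.21, edgeR adjusted p = 0.0194). The adjusted p of Trim30a was 0.0642 without Wt1 siRNA library 6 and 0.0616 without control library 2. Trim25, which activates the RNA sensor RIG-I, had 82.9, 105 and 81.2 CPM after Wt1 siRNA and 84.8, 113 and 100 CPM in controls, which overlap (-0.14 ± 0.14, interval -0.45 to 0.16, adjusted p = 0.527).

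The ADP-ribosyltransferases, which modify proteins with ADP-ribose, and the Parp9 partner Dtx3l together had 1 called gene of 4. Parp9 was lower, with 32.8, 27.6 and 31.4 CPM after Wt1 siRNA, against 39.1, 45.03 and 37.5 CPM in controls (-0.41 ± 0.13, edgeR adjusted p = 0.0455). That call was lost without any 1 library: the adjusted p was 0.0989, 0.165 and 0.0851 without Wt1 siRNA library 4, 5 or 6 and 0.0819, 0.112 and 0.0621 without control library 1, 2 or 3, and it did not pass without a low-count filter either. Dtx3l, the ubiquitin ligase partner of Parp9, had 54.3, 53.8 and 60.6 CPM after Wt1 siRNA and 48.8, 68.8 and 54.7 CPM in controls (-0.03 ± 0.14, adjusted p = 0.917). The genes overlap on opposite strands over 367 exon bases, and the strand setting of the counting is not given. Parp12, which can block viral translation, had 46.5, 44.4 and 43.5 CPM after Wt1 siRNA and 48.0, 55.6 and 39.9 CPM in controls (-0.10 ± 0.13, adjusted p = 0.683). Parp14 had 32.6, 31.2 and 28.2 CPM after Wt1 siRNA and 27.2, 40.4 and 48.6 CPM in controls (-0.34 ± 0.18, adjusted p = 0.237). Its log2 fold change was -0.53 without control library 1 (edgeR adjusted p = 0.0308) and -0.14 without control library 3 (adjusted p = 0.679).

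The MX proteins are dynamin-like GTPases that trap viral ribonucleoproteins, and both genes, neighbours on chromosome 16, were lower. Mx1 had 1, 18 and 3 counts in Wt1 siRNA libraries 4 to 6, against 55, 132 and 123 counts in control libraries 1 to 3. This was the largest fall among the members (-3.80 ± 0.78, edgeR adjusted p = 0.0056), but its size depends on few reads: it was -5.67 without Wt1 siRNA library 5 and -3.31 without library 4. Many laboratory mouse strains carry a defective Mx1 allele, and the strain of these mice is not given. Mx2, which in mice acts in the cytoplasm, had 1.15, 1.49 and 0.688 CPM after Wt1 siRNA, against 3.95, 5.77 and 5.86 CPM in controls (-2.23 ± 0.38, adjusted p = 0.00175). Windows shared by Mx1 and Mx2 transcripts made up 3.86% of those of Mx1.

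Rsad2 (viperin) makes a chain-terminating nucleotide from CTP, and Cmpk2, its neighbour on chromosome 12, is a mitochondrial nucleotide kinase; both are known to be induced together. Rsad2 had 2.23, 4.35 and 1.28 CPM after Wt1 siRNA, against 10.5, 11.5 and 18.8 CPM in controls (5.21-fold lower, log2 fold change -2.38 ± 0.39, edgeR adjusted p = 0.00135). Cmpk2 had 0.892, 2.46 and 1.13 CPM after Wt1 siRNA, against 5.03, 8.20 and 13.3 CPM in controls (5.90-fold lower, -2.56 ± 0.43, adjusted p = 0.00176). In both genes Wt1 siRNA library 5 was the highest of its group and control library 3 the highest control. Isg20, an exonuclease that degrades viral RNA, did not follow: it had 7.58, 9.24 and 5.76 CPM after Wt1 siRNA and 5.03, 8.30 and 7.06 CPM in controls (0.15 ± 0.26, interval -0.41 to 0.70, adjusted p = 0.750).

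Of 4 membrane proteins that act on virus entry and release, Ifitm3 and Bst2 were lower and Ifitm1 and Ifitm2 did not pass. Ifitm3, which blocks fusion of viruses in endosomes, had 126, 119 and 128 CPM after Wt1 siRNA, against 147, 187 and 177 CPM in controls (1.37-fold lower, -0.45 ± 0.11, edgeR adjusted p = 0.017). Per kilobase of exon it averaged 184 CPM after Wt1 siRNA and 251 CPM in controls, the highest level of the 41. The call was lost without Wt1 siRNA library 4 or 5 (adjusted p = 0.0808 and 0.0629) or control library 3 (0.0606). Bst2 (tetherin), which holds budding particles at the cell surface, had 30.7, 36.8 and 36.1 CPM after Wt1 siRNA, against 48.0, 73.5 and 45.9 CPM in controls (-0.69 ± 0.17, adjusted p = 0.0163). Bst2 had an adjusted p of 0.0936 without Wt1 siRNA library 4, and without control library 2, the highest control, its log2 fold change was -0.44.

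Ifitm2, a paralog of Ifitm3, had 41.8, 40.9 and 54.2 CPM after Wt1 siRNA and 56.8, 58.2 and 52.6 CPM in controls (-0.29 ± 0.13, edgeR adjusted p = 0.153). Library 6 lay among the controls, and without it the adjusted p was 0.0442; over the other alternatives it reached 0.426, without Wt1 siRNA library 4. The predicted gene Gm45717 covers 40.9% of the exon bases of Ifitm2 on the same strand, so its count is uncertain. Ifitm1 was near the detection limit, with 11, 7 and 16 counts after Wt1 siRNA and 27, 17 and 17 counts in controls (-0.82 ± 0.70, interval -2.34 to 0.69, adjusted p = 0.463).

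Of the 12 other interferon-induced genes, 6 were lower. Rtp4, known as a chaperone of receptors at the cell surface, had 9.44, 9.53 and 11.5 CPM after Wt1 siRNA, against 16.3, 24.7 and 25.3 CPM in controls (-1.12 ± 0.19, edgeR adjusted p = 0.00207). Ifi204, a DNA-binding protein of the PYHIN family, had 4.57, 7.54 and 11.5 CPM after Wt1 siRNA, against 15.2, 19.5 and 22.2 CPM in controls (-1.26 ± 0.28, adjusted p = 0.00871). Other genes, mainly Ifi211, share 20.0% of its windows, so its count is uncertain. Samd9l, which restrains poxviruses, had 49.8, 45.7 and 52.0 CPM after Wt1 siRNA, against 68.7, 77.2 and 92.9 CPM in controls (-0.69 ± 0.13, adjusted p = 0.00319). In these 3 genes the groups did not overlap and the call held with each library left out.

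Phf11d, Ifi44 and Ifi27 were lower with less margin. Phf11d, a PHD finger protein, averaged 15.2 ± 3.15 CPM after Wt1 siRNA and 25.5 ± 5.23 CPM in controls (SD, n = 3; edgeR adjusted p = 0.0193; 0.0611 without Wt1 siRNA library 6, 0.0608 without control library 2 and 0.0602 without control library 3). Ifi44 had 40.3, 31.8 and 32.7 CPM after Wt1 siRNA, against 39.3, 75.2 and 63.6 CPM in controls, so that control library 1 lay below Wt1 siRNA library 4 (-0.76 ± 0.20, adjusted p = 0.0204). Its adjusted p was 0.0663 and 0.0587 without Wt1 siRNA library 5 or 6, and 0.065 and 0.0784 without control library 2 or 3. Ifi27, a small membrane protein, had 46.7, 53.3 and 49.9 CPM after Wt1 siRNA, against 67.2, 66.3 and 63.4 CPM in controls (-0.39 ± 0.11, adjusted p = 0.0251). Without Wt1 siRNA library 4 or 6 its adjusted p was 0.14 and 0.0617, and without control library 1 or 3 it was 0.0696 and 0.0517.

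The remaining 6 genes of this group did not pass or were not tested. Lgals3bp, a secreted glycoprotein that binds galectins, had 87.3, 110 and 78.9 CPM after Wt1 siRNA and 87.6, 156 and 86.3 CPM in controls, where control library 2 stood apart (-0.26 ± 0.21, edgeR adjusted p = 0.443). Lgals9, a galectin, had 100, 110 and 81.0 CPM after Wt1 siRNA and 89.1, 106 and 87.2 CPM in controls (0.04 ± 0.13, interval -0.24 to 0.33, adjusted p = 0.861). Ifi47, a GTPase of the IRG family, had 21.4, 21.9 and 23.2 CPM after Wt1 siRNA and 21.3, 18.5 and 25.2 CPM in controls (0.03 ± 0.15, interval -0.29 to 0.36, adjusted p = 0.909). For these abundant genes the intervals leave no room for a 2-fold fall.

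Xaf1, which promotes apoptosis, had 23.8, 20.1 and 25.1 CPM after Wt1 siRNA and 24.9, 25.1 and 22.02 CPM in controls (-0.06 ± 0.14, interval -0.37 to 0.24, edgeR adjusted p = 0.811). Ifi35, a cytosolic protein that binds Nmi, had 17.03, 18.7 and 13.1 CPM after Wt1 siRNA and 14.4, 21.9 and 14.6 CPM in controls (-0.06 ± 0.20, interval -0.50 to 0.38, adjusted p = 0.878). The groups overlapped for both genes. Epsti1 had 1 count in Wt1 siRNA library 6 and 0 in the other libraries of either group, and was not tested.

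Across libraries, many members also shared differences within a group. Relative to the mean of each gene over the 6 libraries, their median level (log2 scale) was -0.28, -0.27 and -0.32 in Wt1 siRNA libraries 4 to 6, against 0.11, 0.66 and 0.37 in control libraries 1 to 3. Control library 1 thus lay nearest to the Wt1 siRNA libraries, and it was the lowest control in 27 of 40 members. Control library 2 was the highest control in 25 members. Among Wt1 siRNA libraries, library 6 was the lowest in 20 members and library 5 the highest in 18. These counts were not made over all genes, so they may not be particular to the members. With Wt1 siRNA library 4, 5 or 6 left out, 17, 18 and 17 members were lower, and with control library 1, 2 or 3 left out, 22, 17 and 16 were. Over all genes, 785, 1071 and 1289 were lower without Wt1 siRNA library 4, 5 or 6, of 14609, 14554 and 14527 tested. Without control library 1, 2 or 3, 1132, 1406 and 1025 were lower, of 14485, 14551 and 14556 tested. Of the 22 called members 14 passed with each library left out in turn: Ifit1, Ifit3, Ifit3b, Oasl1, Oasl2, Isg15, Usp18, Mx1, Mx2, Rsad2, Cmpk2, Rtp4, Ifi204 and Samd9l. Trim30a, Ifit1, Phf11d, Ifitm3 and Rtp4 share 5.98% to 11.6% of their transcript windows with other genes, and their counts are uncertain to that extent.

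**Figure D3:**
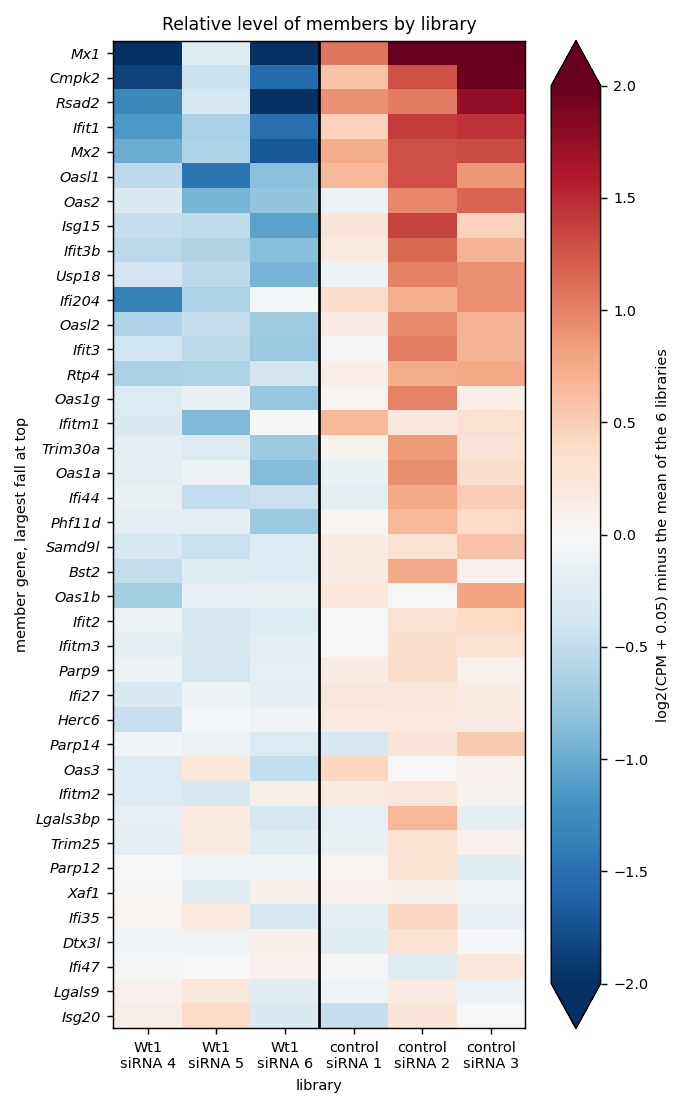
Level of each tested member in each library as log2(CPM + 0.05) minus the gene's mean over the 6 libraries (Wt1 siRNA left of the black line, control siRNA right of it; colours saturate at 2 in either direction). Members with the largest falls are at the top, and control library 1 is paler than control libraries 2 and 3 in most rows.

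Promoter windows were found in the RefSeq table for 31 members. The response element letters occurred in windows of 13 of them (41.9%), and in 3.77% of all tested genes with a window. Of the 13 members with a match 8 were lower, among them Ifit1, Ifit3, Ifit3b, Isg15, Rsad2, Trim30a, Ifitm3 and Bst2, while Oas1a, Oas1g, Oas3, Ifitm2 and Lgals9 did not pass. Of the 17 tested members with a window and no match 7 were lower, including Cmpk2, Oasl1 and Oasl2. The tested genes that are not members still include other interferon pathway genes. Among these non-members, 63 of 405 with a match were lower (15.6%) and 36 were higher (8.89%). Of 10645 non-members without a match, 1057 were lower (9.93%) and 949 higher (8.91%). The STAT dimer letters TTCNNNGAA, which read the same on both strands, were present for 6 members (19.4%) and 8.33% of tested genes. The letters GCGNGGGNG, a GC-rich pattern of the kind that WT1 and EGR proteins bind, were present for 0 members and for 24.2% of tested genes. These matches describe letters in a short window and say nothing about binding.

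**Figure D4:**
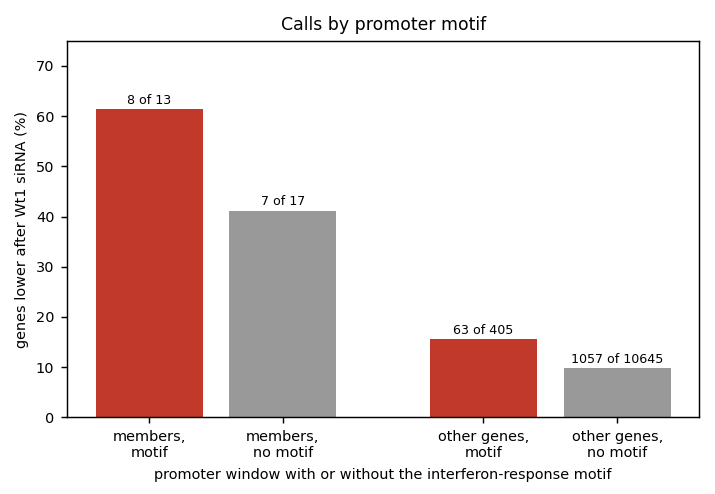
Share of genes called lower after Wt1 siRNA (percent of genes tested), for members and for the other genes tested, with (red) and without (grey) the response element letters in a promoter window; numbers above the bars are lower genes of all genes in the bar. The bars stand at 61.5% and 41.2% for members and at 15.6% and 9.93% for the other genes.

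The rest of the interferon pathway was read from a list of 68 genes. No read of any of 11 interferon genes, Ifnb1, Ifng, Ifne, Ifnk, Ifna and Ifnl genes among them, was counted in any library (11 of 11 at 0), which allows up to 3 counts, or 0.113 CPM, in a library. Of the 57 other genes tested, 17 were lower and 3 higher, or 29.8% lower beside 10.3% of all genes tested. The number of higher genes was 1 without Wt1 siRNA library 4 and 5 without control library 2. It was 2 without Wt1 siRNA library 5, control library 1 or control library 3, and 2 with library size scaling.

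Stat2 and Irf9, which act together in ISGF3, were lower, as was Irf7. Stat2 had 23.7, 27.1 and 21.02 CPM after Wt1 siRNA, against 47.3, 54.6 and 44.4 CPM in controls (-1.03 ± 0.14, edgeR adjusted p = 4.52e-04). All Wt1 siRNA libraries of Stat2 lay below its controls. Irf9 averaged 32.8 ± 4.80 CPM after Wt1 siRNA and 45.9 ± 6.30 CPM in controls (SD, n = 3; -0.49 ± 0.15, adjusted p = 0.0369), and its adjusted p was 0.124, 0.114, 0.0831 and 0.132 without Wt1 siRNA library 5, Wt1 siRNA library 6, control library 2 or control library 3. Irf7, the factor that amplifies interferon production, fell 3.42-fold, to 4.49 ± 0.57 CPM after Wt1 siRNA, against 15.4 ± 5.77 CPM in controls (-1.77 ± 0.26, adjusted p = 7.94e-04).

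Of the receptor genes, Ifnar1 was lower and Ifngr1 and Ifngr2 were higher, while Ifnar2, Ifnlr1 and Il10rb did not pass. Ifnar1, a subunit of the type I interferon receptor, had 73.3, 62.5 and 78.8 CPM after Wt1 siRNA, against 116, 108 and 118 CPM in controls (-0.67 ± 0.11, edgeR adjusted p = 0.00186). Its partner Ifnar2 had 103, 102 and 103 CPM after Wt1 siRNA and 105, 138 and 112 CPM in controls (-0.21 ± 0.12, adjusted p = 0.259). Ifngr1 and Ifngr2, the subunits of the receptor for interferon gamma, were higher, at 163 ± 3.34 and 98.8 ± 4.09 CPM after Wt1 siRNA and 114 ± 6.36 and 71.3 ± 4.05 CPM in controls (0.51 ± 0.10 and 0.47 ± 0.10, adjusted p = 0.00396 and 0.00783). Jak2, a kinase of the interferon gamma receptor, was lower (-0.70 ± 0.13, adjusted p = 0.00265). Jak1 and Tyk2, the kinases of the type I receptor, did not pass (-0.08 ± 0.10 and 0.32 ± 0.16, edgeR adjusted p = 0.651 and 0.176). Among feedback regulators Socs3, which acts mainly on IL-6 family receptors, fell by 1.15 ± 0.13 on the log2 scale, while Socs1, an inhibitor of the JAK kinases, had 4.02 ± 0.94 CPM after Wt1 siRNA and 2.04 ± 0.54 CPM in controls (0.98 ± 0.35, adjusted p = 0.0691, and 0.0391 with DESeq2 to 0.265 without Wt1 siRNA library 4).

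Among 14 nucleic acid sensors and adaptors 3 were lower, or 21.4%, beside 10.3% of all genes tested. Eif2ak2, the kinase PKR activated by double-stranded RNA, was lower (-1.20 ± 0.11, edgeR adjusted p = 3.52e-05). So were Zbp1, a sensor of Z-form nucleic acid (-1.87 ± 0.20, adjusted p = 1.44e-04), and Ifih1, the RNA sensor MDA5 (-0.86 ± 0.17, adjusted p = 0.00502). Uba7, the enzyme that activates Isg15 for conjugation, was lower (-0.76 ± 0.23, adjusted p = 0.0400), with 0.0909, 0.126, 0.112 and 0.0988 without Wt1 siRNA library 4, Wt1 siRNA library 5, control library 2 or control library 3. Ube2l6, the conjugating enzyme, did not pass (-0.24 ± 0.10, adjusted p = 0.132). Of 17 genes of antigen presentation and interferon-inducible GTPases 6 were lower (35.3%, beside 10.3% of all genes tested) and 1 higher. Of their log2 fold changes 13 were negative and 4 positive. The positive ones were all of antigen presentation genes. Tap2 was higher (0.47 ± 0.15, edgeR adjusted p = 0.0411), while B2m, H2-K1 and H2-D1 did not pass (0.26, 0.27 and 0.37). Iigp1, a GTPase that attacks parasite vacuoles, had 28.3 ± 1.24 CPM after Wt1 siRNA and 120 ± 25.9 CPM in controls (-2.08 ± 0.16, adjusted p = 1.49e-05), and Igtp, of the same family, had 11.9 ± 1.88 CPM after Wt1 siRNA and 23.7 ± 2.69 CPM in controls (-0.997 ± 0.17, adjusted p = 0.00161).

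**Figure D5:**
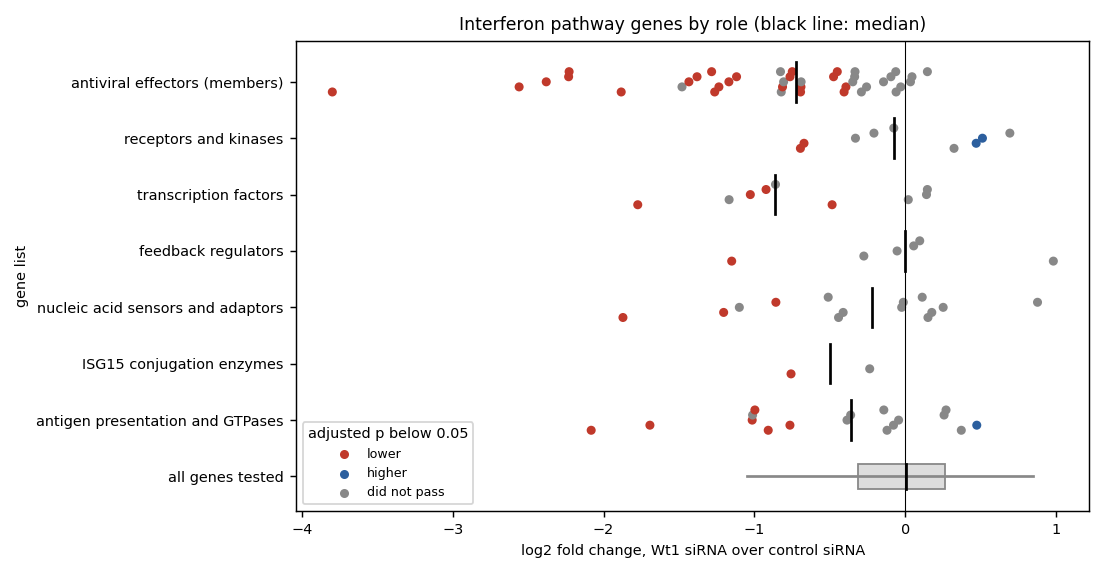
Log2 fold change, Wt1 siRNA over control siRNA, of the members and of the other interferon pathway genes by role (red: lower, blue: higher, grey: did not pass at an adjusted p below 0.05; black line: median). The box for all genes tested spans -0.31 to 0.27 and its line -1.05 to 0.85, the 25th to 75th and 5th to 95th percentiles; the median of the members lies at -0.72.

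The 10 macrophage and monocyte markers summed to 34.0 to 38.3 CPM in Wt1 siRNA libraries and 40.4 to 49.9 CPM in controls; C1qa had 0 counts in every library, and 1 of the list, Cd14, was lower (-1.15 ± 0.22, edgeR adjusted p = 0.0037). The 6 leukocyte markers summed to 0.688 to 1.56 CPM in Wt1 siRNA libraries and 3.20 to 8.12 CPM in controls; Cd3e had 0 counts, and S100a8 was lower (-3.36 ± 0.68, adjusted p = 0.00515). Of the plasmacytoid dendritic cell markers besides Bst2, itself a member, Ccr9 and Klk1 had 0 counts and Siglech had at most 0.435 CPM, while Tcf4, which carried the sum of the list, had 342 to 354 CPM in Wt1 siRNA libraries and 329 to 394 CPM in controls and did not pass. The summed ranges of epithelial markers were 40.04 to 46.5 CPM in Wt1 siRNA libraries and 46.6 to 62.6 CPM in controls, those of endothelial markers 59.7 to 73.5 CPM in Wt1 siRNA libraries and 75.7 to 94.5 CPM in controls, and those of mesothelial markers 89.5 to 118 CPM in Wt1 siRNA libraries and 121 to 151 CPM in controls. The mesothelial list was split: Upk3b and Lrrn4 were lower (-2.16 ± 0.36 and -2.10 ± 0.15), and Msln and Krt19 were higher (0.87 ± 0.15 and 1.12 ± 0.19). The summed ranges of macrophage, leukocyte, epithelial, endothelial and mesothelial markers lay lower after Wt1 siRNA. In the first 4 of these lists only 1 gene each was called lower: Cd14, S100a8, Krt18 and Kdr. Of the 5 macrophage and monocyte markers tested, 3 had negative and 2 positive log2 fold changes (Lyz2 0.14 and Mrc1 0.66, neither passing). The part of such cells in the fall of the effector genes was not tested.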

How the data were processed

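Total RNA of 6 samples was sequenced from standard Illumina libraries, per the labels' protocols. The authors deposited raw read counts per Entrez gene ID, 1 column per library. TopHat, DESeq, bcl2fastq and CASAVA 1.8, with mm10 (GRCm38), are listed per the submitters' processing notes; the sources used here do not give the counting tool, annotation or strand setting. Symbols came from RefSeq for GRCm38.p6 and from GENCODE (23983 of 24061 IDs matched).

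Groups and library numbers came from the sample titles. The test was edgeR 4.0.16 (R 4.3.3; quasi-likelihood F test, TMM, filterByExpr, siRNA group as the only term, Benjamini-Hochberg over 14190 genes, threshold 0.05). A run on simulated counts changed far fewer genes than were called here, so it does not show how the test does on these data. CPM values use TMM factors; each SE is the size of the log2 fold change over the root of its F statistic, and levels per kilobase use GENCODE exon lengths. Alternatives used DESeq2 1.42.0, limma-voom (limma 3.58.1), other scalings, filters and shrinkage, and each library left out. Pairs within a group had chi-square values of 18.9 to 70.9 per degree of freedom, so none was a repeated library. Intervals and detection limits cover counting or replicate error only. The genes named in full are, per role, the member with the smallest p, the most abundant member per length, and every member that did not pass; in each other pathway list the 2 with the smallest p were named besides Stat2, Irf9, Irf7, Ifnb1, Ifnar1 and Ifnar2, and further genes were named after their values were seen. Members, lists and motifs were chosen with earlier results of these data known. Promoter sequences are RefSeq's. Some genes of these lists are not reported here.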

Additional observations from a re-analysis of the deposited data

How the results depend on the processing

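No paired analysis was made, because the groups share no replicate numbers and whether their cultures were paired is not labelled. The number of lower members was 22 to 25 in 7 alternatives of scaling, filter, shrinkage and test, and 16 to 22 with a library left out; that of higher members was 0 in all 13. The median of the members was -0.80 to -0.70 in those 7 and -0.79 to -0.52 with a library left out. Over all genes, library size scaling gave 855 higher, and leaving out a library gave 578 to 1253 higher and 785 to 1406 lower, with the lowest counts without Wt1 siRNA library 4; the cause was not tested. Other pathway genes that were higher numbered 1 to 5 with a library left out. Wt1 ranged from -2.65 to -2.38 on the log2 scale with a library left out.

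Signs turned in 8 members, of which none had passed. Library size scaling gave log2 fold changes of -0.050 for Ifi47 and -0.043 for Lgals9. With a library left out, the values ran from -0.209 to 0.028 for Parp12, -0.132 to 0.122 for Dtx3l, -0.030 to 0.318 for Isg20, -0.171 to 0.169 for Ifi35, -0.066 to 0.156 for Ifi47, -0.129 to 0.026 for Xaf1, -0.402 to 0.081 for Lgals3bp and -0.052 to 0.160 for Lgals9. Depth limits Epsti1, Mx1, Oas1b, Oas2, Oas3 and Ifitm1, whose counts were at most 132 in a library.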
